A study of Mus musculus with 18 samples.

Results

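Expression of Dppa2, Dppa3, Dppa4, Dppa5a, Pecam1, Cd9, Alpl and Kit was followed in E14 mESCs with or without Nsd1. These are 8 of the 20703 genes in the expression table, found by their symbols, and all 8 were present. They were chosen by symbol with earlier results of these data in view, among them the values of KO and WT libraries at each day, and the difference of Pecam1 at day 0 was already known to be among the largest. Their levels, their differences between KO and WT and between days, and the change of the first with time are therefore given as a description, without p-values. Only the difference between the KO lines, which the choice did not use, is given with a p. Since the genes were chosen in this way, counts of calls among them are no support for any pattern. The lists of other genes were chosen with earlier results known as well, so their calls are also a description. E14 is an established mESC line. The WT libraries were labelled as WT E14 cells, and the Nsd1-KO libraries came from KO-1 and KO-2, each a clonal line in which exon 5 of Nsd1 was deleted with Cas9 in E14 cells carrying a 3×Flag tag at the end of Nsd1. Whether the WT libraries came from tagged or untagged cells is not stated in the labels. Cells of all lines were cultured in serum with leukemia inhibitory factor (LIF) on a feeder layer of mouse embryonic fibroblasts (day 0), and were collected 2 or 4 days after LIF and the feeders were withdrawn. Each line and day had 2 biological replicates, which gives 18 libraries of polyA RNA, 2 WT and 4 KO libraries a day.

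Libraries held 9309874 to 23921193 gene counts (median 15721348). The WT libraries of day 2 were the shallowest, with 9309874 and 9356867 counts. Values are normalized counts (counts divided by the size factors of the authors) or variance stabilized (VST) values of DESeq2, a log2 scale with a floor of 8.36 for a count of 0. Differences near that floor are compressed. Odd numbers made up 21.1% to 26.2% of the recovered counts from 1 to 10 in a library, so a count may not stand for 1 independent fragment, and the cause was not tested. The replicates of KO-1 at day 0 were furthest apart in VST value, with a root mean square difference of 0.152 over 10351 genes. The other 8 pairs had 0.0622 to 0.133, the highest being KO-1 at day 4. By a chi-square of counts per gene, the KO-1 pairs of day 4 and day 0 were level (13.995 and 13.969), against 2.22 to 7.19 in the others. A pair alone does not tell which of its libraries is odd. The day 0 difference of each of the 8 genes is also given without replicate 1 of KO-1. As normalized counts, Nsd1 stood at 3374 and 3660.0 in the WT libraries of day 0 and at 635 to 837 in those of KO. At day 4 the ranges were 2111 to 2425 in WT and 575 to 1103 in KO. All 17 genes fixed as markers of undifferentiated mESCs were measured. In WT at day 0 they summed to 114843 ± 986 normalized counts (SD, n = 2), and Tdgf1 was the most abundant of them.

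The genes code for 3 kinds of product. Dppa2 and Dppa4 are nuclear proteins with a SAP domain that form a heterodimer on chromatin, keep CpG-rich promoters free of DNA methylation and are known as activators of genes of the 2-cell embryo. Dppa3, also called Stella or PGC7, is a maternal and germ cell factor that binds Uhrf1 and restrains DNA methylation, while Dppa5a is a small protein with a KH domain, a fold that binds RNA. The other genes code for proteins of the cell surface. Pecam1 is an adhesion molecule of the immunoglobulin family, Cd9 a tetraspanin, Alpl the tissue-nonspecific alkaline phosphatase stained in mESC colonies, and Kit the receptor tyrosine kinase for stem cell factor (Kitl). Pecam1 and Kit are also used by endothelial, blood and germ cells.

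Promoters were available for 3 of the genes (RefSeq, GRCm38.p6), and are shown because the 3 surface markers Alpl, Kit and Cd9 differed in their course after withdrawal. Each line is the 250 bases before the first annotated start, 5′ to 3′ on the strand of the gene, and capitals mark the GC box GGGCGG or its reverse complement.
Alpl, chr4:137796385-137796634, minus strand: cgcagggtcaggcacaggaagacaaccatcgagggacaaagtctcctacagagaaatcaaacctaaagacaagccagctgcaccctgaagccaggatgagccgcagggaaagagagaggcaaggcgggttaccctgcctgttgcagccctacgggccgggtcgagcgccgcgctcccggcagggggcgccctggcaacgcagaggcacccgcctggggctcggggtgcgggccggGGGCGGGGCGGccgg
Kit, chr5:75574737-75574986, plus strand: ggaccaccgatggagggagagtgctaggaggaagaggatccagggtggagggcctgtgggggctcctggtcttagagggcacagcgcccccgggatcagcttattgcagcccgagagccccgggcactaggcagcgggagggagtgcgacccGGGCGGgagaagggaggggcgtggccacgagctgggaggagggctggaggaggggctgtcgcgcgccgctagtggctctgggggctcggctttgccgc
Cd9, chr6:125494761-125495010, minus strand: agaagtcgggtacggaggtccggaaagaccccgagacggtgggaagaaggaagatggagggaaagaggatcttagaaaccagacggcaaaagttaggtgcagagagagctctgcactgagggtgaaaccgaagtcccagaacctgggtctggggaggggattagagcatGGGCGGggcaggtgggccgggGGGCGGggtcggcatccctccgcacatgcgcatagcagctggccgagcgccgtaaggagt
Searched on both strands, Alpl held 2 overlapping GC boxes, the nearer 5 bases before the start. Cd9 held 2 and Kit 1, at 55 and 93 bases before the start. Of 32851 such promoter windows, 32.7% held at least 1 GC box. None of the 3 windows held the letters AAGGTCA (a site of the Esrrb type, in 4.08% of windows), ATTTGCAT (the octamer, in 1.6%) or TATAAA (the TATA box, in 12.4%), which says only that these letters were not in these windows. Second annotated starts were searched too. That of Alpl (chr4:137766476-137766725, minus strand) held no GC box and 1 TATAAA, 187 bases before the start, and that of Kit held the same GC box, 97 bases before it.

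Per kilobase of merged exons, Dppa5a was the most abundant of the 8 genes in WT at day 0, with 18845 ± 785 normalized counts per kilobase (SD, n = 2). Dppa4 (857 ± 5.39), Cd9 (786 ± 11), Alpl (726 ± 20.6) and Dppa2 (680.4 ± 11.1) followed, and then Pecam1 (349 ± 20.3), Kit (261 ± 5.08) and Dppa3 (96.1 ± 10.4). Each gap between neighbours in this order was larger than the SD of either gene. In KO at day 0 Dppa3 stood at 840.0 ± 149 per kilobase (SD, n = 4), level with Dppa4 at 843 ± 91.2. Exon lengths were taken from GENCODE M21 on GRCm38, and the counts from mm39.

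**Figure D1:**
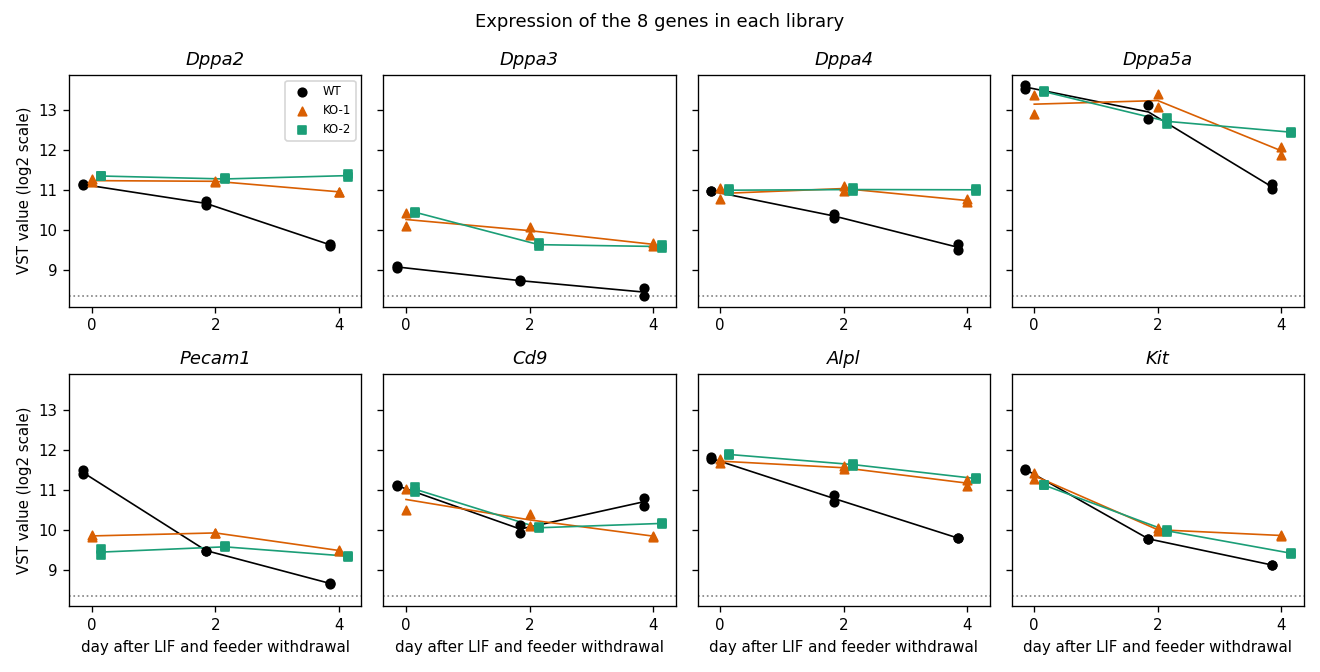
VST value (log2 scale, y axis) of each of the 8 genes in each of the 18 libraries by day (x axis), with WT as circles, KO-1 as triangles, KO-2 as squares, lines through the mean of the 2 libraries of a line, and a dotted line at the floor of 8.36. The WT lines of Dppa2, Dppa4 and Alpl descend more than those of both KO lines, Pecam1 starts low in both KO lines, and Cd9 at day 4 is higher in WT than in KO.

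With limma on the VST values of all genes, calls needed an adjusted p below 0.01 with a log2 difference beyond 0.58 in either direction, the thresholds in the methods of the study. Between KO and WT, 2 of the 8 genes were called at day 0 (1 higher and 1 lower in KO), 4 at day 2 (all higher) and 7 at day 4 (6 higher, 1 lower). Of all genes tested, 2.61% were called at day 0, 6.38% at day 2 and 7.58% at day 4. By limma-voom on the recovered counts 13.3%, 23.9% and 23.9% were called, and each limma-voom count of a list below stands beside these shares. The median difference of the 8 genes was −0.12, 0.43 and 1.15 on the log2 scale, beside medians of −0.0032, −0.016 and 0 over all genes. Every KO library was higher than both WT libraries for 2 genes on day 0, 6 on day 2 and 7 on day 4, and lower than both for 4, 0 and 1. Across the table, 47.4%, 57.5% and 49.8% of genes were separated in this way in either direction. Of all genes called at day 2, 62.9% were higher in KO, a share that was 73.9% after centring each library on its median and 43.2% by limma-voom on the recovered counts, where the median of all genes was −0.14. At day 0 the share was 66.4%, and 48.4% by limma-voom. Which differences came from fewer cells of a type and which from less RNA per cell cannot be told apart in these bulk libraries.

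**Figure D2:**
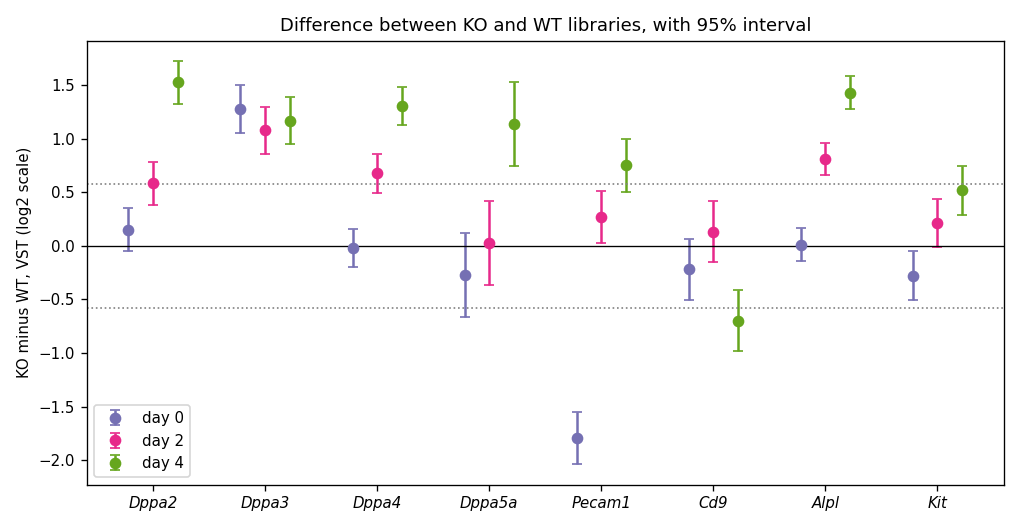
Difference between the 4 KO and the 2 WT libraries in VST value (log2 scale, y axis) for each gene (x axis) at day 0, 2 and 4, as points with their 95% interval from limma, with dotted lines at 0.58 and −0.58. Dppa2, Dppa4 and Alpl move up from near 0 at day 0 to 1.30 to 1.52 at day 4, Dppa3 is above 1 at every day, and Pecam1 moves from −1.79 to 0.75.

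Dppa2 and Dppa4 were close in WT and KO at day 0 and had higher levels in KO at day 2 and day 4. Dppa2 at day 0 had 1684 and 1646 in WT, 1768 and 1863 in KO-1 and 2020.2 and 2007 in KO-2. At day 2 it had 991 and 1099 in WT, 1767 and 1808 in KO-1 and 1906 and 1864 in KO-2, and at day 4 289.8 and 267 in WT, 1403 and 1391 in KO-1 and 2108 and 1959.9 in KO-2. All 4 KO libraries were above both WT libraries at each day, by a small margin at day 0 and far above at day 4. The ratio of the KO mean to the WT mean was 1.15, 1.76 and 6.16 at day 0, 2 and 4, and the differences in VST value were 0.15 ± 0.10, 0.58 ± 0.10 and 1.52 ± 0.10 (log2 difference ± SE). That of day 0 was 0.18 without replicate 1 of KO-1.

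Dppa4, the partner of Dppa2 and its neighbour on chromosome 16, had 1417 and 1430.0 in WT, 1180.4 and 1517 in KO-1 and 1425 and 1480.1 in KO-2 at day 0, where the groups overlapped. The values were 785 and 694 in WT, 1606 and 1419 in KO-1 and 1535 and 1416 in KO-2 at day 2, and 218 and 282 in WT, 1078 and 1174 in KO-1 and 1509 and 1424 in KO-2 at day 4. The groups were apart at both later days, with ratios of 2.02 and 5.18 after 0.984 at day 0. In VST value the differences were −0.02 ± 0.09, 0.68 ± 0.09 and 1.30 ± 0.09. Without replicate 1 of KO-1 the difference at day 0 was 0.04. The call of Dppa2 at day 2 lies at the threshold and is lost under quantile normalization (0.47), with KO-1 alone (0.55), and without replicate 1 of WT day 2 (0.53) or either KO-2 replicate of day 2 (0.57 and 0.58), and that of Dppa4 at 0.58 under quantile normalization. Of the 100-base stretches of its transcripts, 23.9% for Dppa2 and 14.0% for Dppa4 also occur in other annotated genes. Those in the table had few reads: Gm9788 had group means of 4.48 to 17.1 normalized counts, Gm14058 of 0 to 18.2 and Gm5501 of 0 to 2.7.

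Dppa3 was the gene with the largest ratio of KO to WT at each day among the 8. At day 0 it had 92.2 and 79.1 in WT, 551 and 801 in KO-1 and 814 and 830.3 in KO-2, and the lowest KO library was far above the higher WT library. At day 2 the values were 26.1 and 21.1 in WT, 535 and 409 in KO-1 and 298 and 259 in KO-2. At day 4 they were 0 and 6.31 in WT, 268 and 297 in KO-1 and 272 and 242 in KO-2, and the KO libraries were again far above both WT libraries. The ratio of means was 8.74 at day 0 and 15.9 at day 2. At day 4 it was 85.5, which rests on 0 and 10 counts in the WT libraries. The VST scale compresses such low counts, and there the differences were 1.28 ± 0.11, 1.08 ± 0.11 and 1.17 ± 0.11. In KO the mean level itself went from 749 ± 133 (SD, n = 4) at day 0 to 269.8 ± 22.5 at day 4. Without replicate 1 of KO-1, the lowest KO library of day 0, the difference at day 0 was 1.36.

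Among the DNA methylation genes, fixed as a list because Dppa2, Dppa3 and Dppa4 bear on methylation, 1 of 10 was called higher at day 0, 3 higher and 1 lower at day 2, and 5 higher at day 4. The de novo cofactor Dnmt3l had 1206 ± 29.8 normalized counts in WT at day 4 (SD, n = 2) and 6858 ± 1846 in KO (SD, n = 4), a VST difference of 2.02. It was also called higher at day 2, with 3661 ± 213 in WT and 12007 ± 913 in KO. The de novo methyltransferase Dnmt3b was higher in KO than in WT at day 0 (0.67) and day 4 (1.62), and 0.64 lower at day 2. Dnmt3a, the other de novo methyltransferase, was called at day 4 only (1.26), the 5-methylcytosine dioxygenase Tet1 at day 4 (0.97), and its relative Tet3 at day 2 and day 4 (0.63 and 0.90). Zfp57, a zinc finger protein that protects imprints, was called at day 2 (1.29). By limma-voom the counts were the same except for 6 higher at day 4. Uhrf1, the partner of Dppa3, was not called by limma at any day, with differences of −0.13, 0.52 and 0.32.

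Genes of the 2-cell embryo, the class that Dppa2 and Dppa4 are known to activate, were counted too. Whether their course differed from that of Dppa2 and Dppa4 was not tested. Of 15 measured, 3 were called lower in KO at day 2 and 0 at the other days, with medians of −0.20, −0.43 and −0.033. Zscan4c, a zinc finger gene of this class, had 155 ± 28.1 normalized counts in WT and 20.9 ± 4.0 in KO at day 2, and Usp17le had 154 ± 0.58 and 9.16 ± 5.3 (SD, n = 2 WT and 4 KO). Usp17le was lower in KO by 0.74 in VST value, Zscan4f by 0.64 and Zscan4c by 0.61. By limma-voom 8, 13 and 1 of the 15 were lower, beside 13.3%, 23.9% and 23.9% of all genes called in either direction. The Zscan4 genes are near-identical copies of each other, as are the Usp17l genes, so single counts within these families are uncertain. Summed over the list, WT had 826 ± 83.0 normalized counts at day 0, 1108 ± 88.1 on day 2 and 64.7 ± 10.3 on day 4, whereas KO had 331 ± 44.3, 124 ± 18.6 and 32.0 ± 10.3.

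Dppa5a had the highest level of the 8 genes, and the KO libraries were above WT at day 4 but not before. At day 0 it had 11321 and 12008 in WT, 7109.7 and 10109 in KO-1 and 10659.8 and 10801 in KO-2, and the KO libraries were all below the WT libraries, replicate 1 of KO-1 by the most. At day 2 the values were 8428 and 6369.8 in WT, 10184 and 8079 in KO-1 and 6487 and 5811 in KO-2, and the groups overlapped. At day 4 they were 1479 and 1666 in WT, 3169.6 and 3733 in KO-1 and 5024 and 4949.5 in KO-2, with all KO libraries above WT. The ratios were 0.83, 1.03 and 2.68, and the VST differences −0.27 ± 0.19, 0.03 ± 0.19 and 1.14 ± 0.19. Without replicate 1 of KO-1 the value of day 0 was −0.14. At day 2 the sign depended on the clone, as KO-2 alone gave −0.23. Of 7 other Dppa and KH domain genes, 3 were measured. Khdc3, which belongs to the subcortical maternal complex, was higher in KO at day 0 and day 2 (0.68 and 0.74), and Ooep, a member of the same complex, at day 4 (0.76). In the other direction, Ooep had 732 ± 18.1 normalized counts in WT at day 0 and 442 ± 94.4 in KO (−0.41), which was not called. Khdc3 at day 4 had 1.95 ± 0.08 in WT and 35.5 ± 12.6 in KO (0.36), near the floor where the scale is compressed, and was not called either. limma-voom called Khdc3 higher at all 3 days, and Ooep lower at day 0 and higher at day 2 and day 4. Dppa5b had group means of at most 3.12 normalized counts and was not called.

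Pecam1 was called lower in KO than in WT at day 0 and called higher at day 4. The values at day 0 were 2264 and 2085 in WT, 371 and 400.3 in KO-1 and 223 and 173 in KO-2, and the WT libraries were 7.45-fold higher on average. At day 2 there were 212 and 211 in WT, 433 and 425 in KO-1 and 255 and 246 in KO-2. At day 4 there were 14.1 and 16.4 in WT, 212 and 213 in KO-1 and 155 and 165 in KO-2, a ratio of 12.2 between the KO and WT means. In WT the level was thus far lower at day 4, at 0.702% of the day 0 mean, while the KO libraries kept 63.9% of their own low day 0 mean. VST differences were −1.79 ± 0.12, 0.27 ± 0.12 and 0.75 ± 0.12. Without replicate 1 of KO-1 the difference at day 0 was −1.85. KO-2 was below KO-1 by 0.40 at day 0 (adjusted p = 4.28e-04, limma) and by 0.35 at day 2 (adjusted p = 1.51e-03, same test), and both KO lines lay far from WT at day 0.

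Pecam1 is also a gene of endothelial and blood cells, so markers of these cells were counted. Of 11 measured in KO against WT, 1 was called higher at day 0, 1 at day 2 and 1 at day 4, where 1 was lower. Cdh5, the defining cadherin of endothelium, stood at 2.88 and 3.35 normalized counts in the WT libraries of day 0 and at 0 in all 4 KO libraries, and the common leukocyte gene Ptprc had 10.1 to 50.4 in WT and 0 to 25.7 in KO. The list summed to 731 ± 34.2 normalized counts in WT at day 0 and 768 ± 64.7 in KO, with Vwf the most abundant in WT (395) and Tek, the angiopoietin receptor, in KO (412). At day 2 the list summed to 306 ± 18.4 in WT and 1297 ± 77.5 in KO, where Tek had 74.7 and 1088. At day 4 the sums were 1246 ± 51.5 in WT and 1346 ± 105 in KO. Single genes differed in opposite directions under the sums of day 0 and day 4. At day 4 Tek had 29.4 ± 4.02 in WT and 954 ± 69.1 in KO (SD, n = 2 WT and 4 KO). On the same day Cdh5 had 46.1 ± 2.62 in WT and 2.15 ± 1.09 in KO, and Runx1 83.6 ± 1.48 and 13.55 ± 1.88. Vwf, the von Willebrand factor of endothelium, had 395 ± 27.4 normalized counts in WT at day 0 and 147 ± 42.6 in KO, a VST difference of −0.57 that was just under the fold threshold. The endothelial receptor Tie1 had 20.7 ± 3.23 and 2.07 ± 1.54 (−0.26). limma-voom called these 2 genes lower and 1 gene higher at day 0, 3 higher and 2 lower at day 2, and 3 higher and 3 lower at day 4. Their part in the difference of Pecam1 was not tested. Tek was called at all 3 days (0.64, 1.67 and 1.80). Kdr, the VEGF receptor, was 1.10 lower in KO at day 4, where WT had 959 ± 43.4 and KO 214 ± 30.2 normalized counts. Of the 11 measured junction molecules of the immunoglobulin and cadherin families, 2 were called higher at day 0, 3 higher and 2 lower at day 2, and 1 higher and 4 lower at day 4. N-cadherin (Cdh2) was 1.53 higher in KO than in WT at day 0 and at day 2, and 0.76 lower at day 4. E-cadherin (Cdh1) was 0.70 lower in KO at day 2 and 0.62 lower at day 4. Jam2 was 1.22 and 1.16 higher at day 2 and day 4, and Ncam1 1.00 higher at day 0 and day 2. Among these junction genes limma-voom called 3 higher at day 0, 4 higher and 2 lower at day 2, and 3 higher and 6 lower at day 4. Beside these and the endothelial and blood counts, it called 13.3%, 23.9% and 23.9% of all genes.

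Alpl, the alkaline phosphatase of mESCs, followed Dppa2 and Dppa4. It had 2869 and 2987 in WT, 2659.5 and 2862 in KO-1 and 3217 and 3119 in KO-2 at day 0, where the groups overlapped, and 1074 and 1277 in WT, 2307 and 2486 in KO-1 and 2624 and 2508 in KO-2 at day 2. At day 4 it had 355 and 357 in WT, 1593 and 1814 in KO-1 and 1905 and 1867 in KO-2, and all KO libraries were above both WT libraries at both later days. The ratios were 1.01, 2.11 and 5.04, and the VST differences 0.01 ± 0.07, 0.81 ± 0.07 and 1.43 ± 0.07. At day 0 the difference was near 0, its sign depended on the alternative, and it was 0.054 without replicate 1 of KO-1. The 4 other alkaline phosphatase genes of the fixed list were not among the 20703 genes.

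Kit went down in both genotypes. It had 2289.6 and 2354 in WT, 2139 and 1889 in KO-1 and 1623 and 1643 in KO-2 at day 0, with all KO libraries below WT. At day 2 the values were 345 and 345 in WT, 454 and 503 in KO-1 and 445 and 478 in KO-2, and at day 4 94.6 and 96 in WT, 392 and 391 in KO-1 and 192 and 182 in KO-2. All KO libraries were above WT at both later days, with ratios of 1.36 and 3.04 after 0.785 at day 0. The differences in VST value were −0.28 ± 0.11, 0.22 ± 0.11 and 0.52 ± 0.11, and that of day 0 was −0.34 without replicate 1 of KO-1. The difference of day 4 stayed under the threshold of 0.58 while limma-voom gave 1.49 and called it. With KO-1 alone it was 0.74 and called, and it was also called without either KO-2 library of day 4 (0.59 and 0.60). The clones differed at day 4, with 392 and 391 normalized counts in KO-1 and 192 and 182 in KO-2 (−0.44, adjusted p = 5.37e-05, limma).

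The ligand of Kit was also measured. Kitl had 53.7 ± 9.52 normalized counts in WT at day 0 and 519.5 ± 32.1 in KO, 35.8 ± 0.14 and 1230.4 ± 243 at day 2, and 500.4 ± 38.8 and 807 ± 105 at day 4 (SD, n = 2 WT and 4 KO). Its VST difference was 1.13 at day 0 and 1.99 at day 2, both called, and 0.39 at day 4, which was not called. Of the 11 genes for the ligand, type III receptor tyrosine kinases and Kit adaptors, 1 was called higher and 1 lower at day 0 and at day 2, and 2 lower at day 4. Pdgfra, a receptor of mesenchyme and primitive endoderm, had 845 ± 17.4 normalized counts in WT at day 4 and 60.0 ± 7.24 in KO. In VST value it was 1.51 lower in KO. Pdgfrb was 0.67 lower in KO at day 0 and 1.22 lower at day 4. The adaptor Grb7 was 0.68 lower in KO at day 2. Grb2 and Cbl were not called. By limma-voom 1 of the 11 was higher and 2 lower at day 0, 2 and 4 at day 2, and 1 and 2 at day 4. That method called 13.3%, 23.9% and 23.9% of all genes.

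Cd9 took another course than the other 7 genes: WT had the higher level at day 4. At day 0 the values were 1623 and 1591 in WT, 869 and 1484 in KO-1 and 1559 and 1390.3 in KO-2, with all KO libraries below WT. At day 2 they were 562 and 423 in WT, 782 and 541 in KO-1 and 504 and 517 in KO-2, and the groups overlapped. At day 4 they were 979 and 1189.6 in WT, 390.1 and 376 in KO-1 and 597 and 577 in KO-2, and all KO libraries were below both WT libraries, at 0.447 of the WT mean. The differences were −0.22 ± 0.14, 0.13 ± 0.14 and −0.70 ± 0.14 in VST value. That of day 0 rested largely on replicate 1 of KO-1 and was −0.090 without it. In WT the level was 30.7% of its day 0 mean at day 2 and 67.5% at day 4, while in KO it was 44.2% and 36.6%. The call at day 4 was lost without replicate 2 of WT day 4 (−0.61) and with KO-2 alone (−0.54), which is under the fold threshold. An antisense gene, Gm26728, shares 218 exon bases with Cd9 and had at most 4.25 normalized counts as a group mean. Whether counting used strand is not stated.

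Of 12 tetraspanins and partners of Cd9, 1 was called higher and 1 lower at day 0, 2 lower at day 2, and 1 higher and 2 lower at day 4. Cd63, a tetraspanin of late endosomes, had 838 ± 55.7 normalized counts in WT at day 0 and 2087 ± 324 in KO, and was 0.92 higher at day 0 and 0.74 at day 4. Ptgfrn, which binds Cd9, was lower in KO by 0.63 at day 0 and 0.58 at day 4, and Igsf8, another Cd9 partner, by 0.71 at day 4. Epcam, an epithelial adhesion molecule, had 4204 ± 83.7 normalized counts in WT at day 2 and 1619 ± 231 in KO. In VST value it was 1.13 lower in KO. Tspan7 was 0.59 lower in KO at day 2. The abundant Cd81 and Cd151 were not called. By limma-voom 2 of the 12 were higher and 2 lower at day 0, 1 and 2 at day 2, and 3 and 4 at day 4. That method called 13.3%, 23.9% and 23.9% of all genes.

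Between day 0 and day 2, 5 of the 8 genes were called lower in WT (Alpl, Cd9, Dppa4, Kit and Pecam1), against 6.68% of all genes called in either direction, and between day 0 and day 4 7 were lower, all but Cd9 (13.8%). Between day 2 and day 4, 6 were called lower in WT and Cd9 higher (8.76%). In KO, 2 were called lower at day 2 (Cd9 and Kit, with 3.2% of all genes called) and 4 at day 4 (Cd9, Dppa3, Dppa5a and Kit, 6.5%), and Dppa5a was the only call between day 2 and day 4 (1.49%). With KO-1 alone 1 of the 8 genes was called at day 2, and with KO-2 alone 4. The share of all genes called in those 2 fits is not given here, so these counts only describe how the result varied. Dppa5a in KO between day 2 and day 4 was not called with KO-2 alone (−0.27). The call of Dppa4 in WT at day 2 was lost without replicate 2 of WT day 2 (−0.57), and that of Dppa3 in WT at day 4 without replicate 1 of WT day 4 (−0.53). That of Cd9 in WT between day 2 and day 4 was lost without replicate 2 of day 2 (0.58) and also without replicate 2 of day 4, where 0.59 passed the fold threshold and the adjusted p did not pass. Dppa3 in KO at day 2 was called without replicate 1 of KO-1 at day 0 (−0.63) or at day 2 (−0.64), with KO-2 alone (−0.81) and by limma-voom (−1.07). Alpl in KO at day 4 (−0.58) lies just under the fold threshold and was called by limma-voom (−0.72). Also called by limma-voom alone were Kit in KO between day 2 and day 4 (−0.80) and Dppa2 in WT at day 2 (−0.67). Dppa2 and Dppa4 in KO kept 89.6% and 92.6% of their day 0 mean at day 4, and in WT 16.7% and 17.6%. For Alpl the shares were 60.5% in KO and 12.2% in WT, for Dppa5a 43.6% and 13.5%, for Dppa3 36.0% and 3.68%, and for Kit 15.9% and 4.1%.

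**Figure D3:**
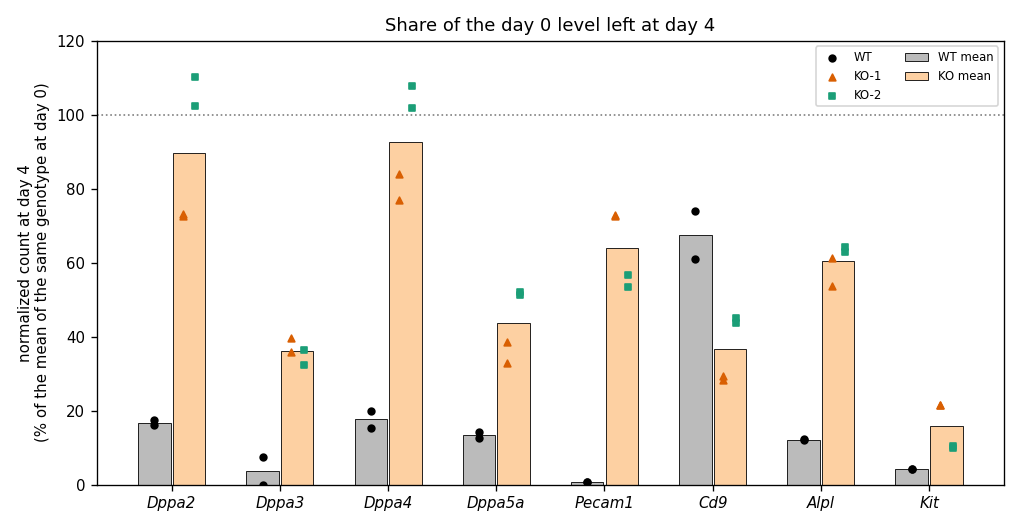
Normalized count at day 4 as a percentage of the mean of the same genotype at day 0 (y axis, from 0) for each gene (x axis), with bars for the mean of WT (n = 2) and KO (n = 4) and points for the libraries. The KO bars are above the WT bars for every gene but Cd9, where WT is at 67.5% and KO at 36.6%.

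The difference between KO and WT itself changed with time. As KO minus WT, the signed difference moved up from day 0 to day 2 by a called amount for 3 genes, Dppa4 (0.70 ± 0.12), Pecam1 (2.06 ± 0.17) and Alpl (0.80 ± 0.10), as log2 change ± SE. From day 0 to day 4 it did so for 6 genes, Dppa2 (1.37 ± 0.14), Dppa4 (1.32 ± 0.12), Dppa5a (1.41 ± 0.26), Pecam1 (2.54 ± 0.16), Alpl (1.417 ± 0.10) and Kit (0.80 ± 0.15). For Pecam1 this took the difference from −1.79 through 0.27 to 0.75, so that it turned sign. On the VST scale, which is compressed at the low WT counts of day 4, it was smaller in size at day 4 than at day 0, while by limma-voom it was −3.01 at day 0 and 3.54 at day 4. Of all genes, 3.19% and 6.93% were called in either direction. For Dppa3 the change was −0.11 ± 0.15 on the VST scale and 3.89 by limma-voom, which is not compressed at the low WT counts and did not call it. Cd9 (−0.48 ± 0.19) was not called, and was called at −0.61 without replicate 1 of KO-1 at day 0.

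Between the clones, 0 of the 8 genes were called by limma at day 0, 2 or 4, where 0.029%, 0.0435% and 0.251% of all genes were called. At an unadjusted p under 0.05 there were 7, 3 and 6 genes, beside 14.8%, 12.3% and 25.3% of all genes. limma-voom called 1 of the 8 at each day (Pecam1, Pecam1 and Kit), beside 0.159%, 0.232% and 2.23% of all genes. At an adjusted p under 0.01 without a fold threshold, KO-2 was below KO-1 for Pecam1 at day 0 and day 2 and for Kit at day 4, and above it for Dppa2 at day 4 (0.41, adjusted p = 1.16e-04, limma). Of all genes, 0.203%, 0.338% and 5.16% passed in this way at day 0, 2 and 4. Each clone is 1 cell line, and the KO and WT cells differ in clonal history as well as in Nsd1, so these cannot be told apart.

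Over the 18 libraries, the VST values of Dppa2 and Dppa4 had a Pearson r of 0.98, those of Alpl and Dppa4 0.95, and those of Dppa2 and Alpl 0.94. Cd9 was the least alike, with r of −0.033 to Dppa2, 0.019 to Dppa4 and 0.65 to Kit. Pecam1 had r of 0.11 with Dppa3 and 0.72 with Kit. In each library the values of both genes share the same depth, size factor, genotype and day, and r is a description. Among 10227 genes with a mean of at least 100 normalized counts, the nearest to Dppa4 were Csrp2 (0.98), Dppa2 (0.98) and Slc9b1 (0.97), and those to Dppa2 were Dppa4, Slc9b1 and Pdk1. The nearest to Alpl were the pluripotency factor Sox2 (0.99), Hsf2bp (0.98) and Rpl10l (0.98), and to Kit the meiotic cohesin subunit Stag3, Kbtbd11 and Kat6b (all 0.99). For Dppa3 they were Cpsf4l, Slc39a4 and Pip5k1b (all 0.96), for Dppa5a Mrpl15 (0.97), Chchd10 and Gins1 (both 0.96), for Pecam1 Myo1f (0.93), Cpne5 and Epas1 (both 0.92), and for Cd9 Acaa1a (0.97), Amacr (0.96) and Flot1 (0.94).

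**Figure D4:**
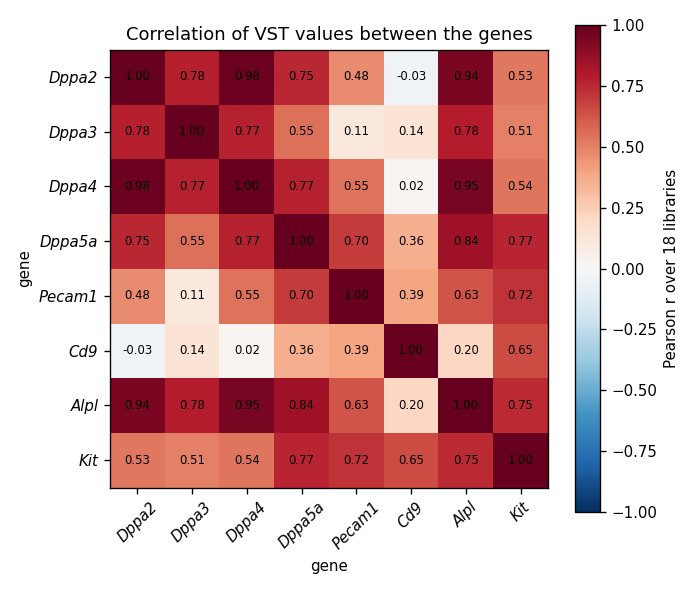
Pearson r of VST values over the 18 libraries between each pair of the 8 genes (both axes), with the value in each cell and color from −1 to 1. Dppa2, Dppa4 and Alpl form the block of highest r, 0.94 to 0.98, and the row of Cd9 holds the lowest, −0.03.

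Single markers of other cell states also differed between KO and WT. Of all genes, 2.61%, 6.38% and 7.58% were called at day 0, 2 and 4, and 13.3%, 23.9% and 23.9% by limma-voom. Of 17 markers of undifferentiated mESCs, 1 was called higher in KO at day 0, 10 higher and 1 lower at day 2, and 10 higher and 2 lower at day 4. Among them Sox2 was 1.43 and 2.72 higher at day 2 and day 4, Esrrb 1.78 and 2.15, Klf2 2.07 and 1.94, Zfp42 1.75 and 1.62, and Tfcp2l1 1.58 and 1.24. Utf1 was 1.54 higher at day 4 only. Pou5f1 was 0.69 lower in KO at day 2, and Klf5 was 1.25 and Tdgf1 1.07 lower at day 4. Of the 17, limma-voom called 1 higher and 2 lower at day 0, 12 and 1 at day 2, and 13 and 4 at day 4. All 5 formative epiblast markers were lower in KO at day 2. At day 0, 1 was higher, and at day 4, 1 was higher and 1 lower (2 higher and 1 lower by limma-voom). Of 8 germ cell genes, which share Dppa3, Kit and Alpl with mESCs, 1 was lower at day 0, 2 higher and 1 lower at day 2, and 2 higher at day 4. Tfap2c was 1.35 and 0.77 higher at day 2 and day 4, Prdm1 0.85 at day 2 and Ddx4 1.39 at day 4. Mael was 1.25 lower in KO at day 0 and 1.14 lower at day 2. limma-voom called 2 germ cell genes higher and 2 lower at day 0, 4 higher and 2 lower at day 2, and 5 higher at day 4.

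Of 9 measured feeder fibroblast genes, 3 were called higher in KO at day 0 (Col1a1 by 0.68, Col3a1 by 0.62 and Col1a2 by 0.60), 1 lower at day 2 (Thy1, −0.68) and 1 lower at day 4 (Col1a1, −1.11). By limma-voom it was 4 higher at day 0, 1 lower at day 2 and 5 lower at day 4. Their summed normalized count at day 0 was 2864 and 2869 in WT and 4814 to 5620.2 in KO, Col1a1 being the most abundant, and at day 4 it was 2353 and 2503 in WT and 609 to 1331 in KO. Lum was at 0 in all libraries of day 0. The part of these cells in the values of the 8 genes was not tested.

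**Figure D5:**
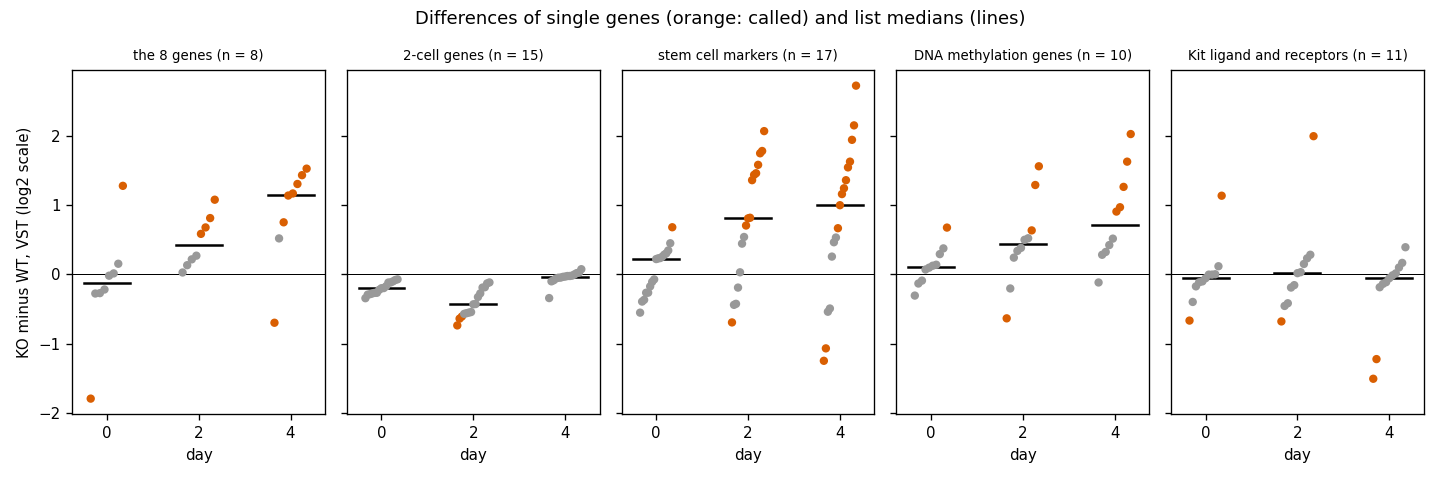
KO minus WT difference in VST value (log2 scale, y axis) of single genes at each day (x axis) for the 8 genes and 4 lists, with called genes in orange, others in grey and a line at the median of the list. The medians at day 4 are 1.15 for the 8 genes, 1.00 for the stem cell markers and 0.71 for the DNA methylation genes, each with single genes below 0, and the 2-cell genes have a median of −0.43 at day 2.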

How the data were processed

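RNA-seq was analysed for WT, KO-1 and KO-2 at 3 days, with 2 libraries a line and day. According to the methods and the submitters' processing notes, the authors trimmed reads with Trim Galore 0.6.7, aligned them to mm39 with STAR 2.7.11a, counted them on exons with featureCounts 2.0.6, filtered out those with few counts and deposited VST values of DESeq2 1.42.0, on a log2 scale, covering 20703 genes. Counts and size factors were recovered here by inverting the transformation, and 100% of the values came out whole within 0.01. Fits used R 4.3.3 with limma 3.58.1: trended prior variance, 1 fit with 6 groups (genotype by day, clones pooled as KO), or 9 groups of line and day between clones, and Benjamini-Hochberg adjustment over all genes. Intervals of differences are at 95%. limma-voom on the recovered counts was an alternative. Steps were tested on simulated data. With 4 libraries against 2 an exact permutation test could not reach p under 0.05, and none was made. The libraries are biological replicates by their labels, and p-values measure the spread between them. The 4 KO libraries of a day are 2 of each clone, fitted as 1 group. The SE, intervals and calls between KO and WT thus do not measure the spread between independently derived lines. The 8 genes and the lists were chosen with earlier results of these data known. Named from each list were up to 6 called genes by size of difference and up to 2 others with the highest mean value, and for each of the 8 genes the 3 nearest by Pearson r. The contrasts of day 4 against day 2, near-copy genes, and some list genes beyond that rule were added after values were seen.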

Additional observations from a re-analysis of the deposited data

Results flagged for a closer look

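In 3 of the 24 gene and group sets with 4 libraries, 1 library lay far from the others, and chance alone marks about 1 in 20. They were Dppa3 at day 0, with replicate 1 of KO-1 at 551 normalized counts and a gap of 0.908 of the range, Dppa5a at day 0, with the same library at 7109.7 and a gap of 0.84, and Cd9 at day 2, with replicate 1 of KO-1 at 782 and a gap of 0.85.

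The signed difference of KO minus WT moved with time, as log2 change. It is given without a p, since the genes were chosen with the KO and WT values of each day known. At day 2 against day 0 it changed for Dppa4 by 0.70, for Pecam1 by 2.06 and for Alpl by 0.80. At day 4 against day 0 it changed for Dppa2 by 1.37, for Dppa4 by 1.32, for Dppa5a by 1.41, for Pecam1 by 2.54, for Alpl by 1.417 and for Kit by 0.80.

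The clones differed for Pecam1 at day 0 by −0.40 (adjusted p = 4.28e-04) and at day 2 by −0.35 (1.51e-03), for Dppa2 at day 4 by 0.41 (1.16e-04), and for Kit at day 4 by −0.44 (5.37e-05), as KO-2 minus KO-1 in limma.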

How the results depend on the processing

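Of the alternatives for single genes, 2997 gave the same verdict, 25 passed a threshold that the main fit did not, 15 no longer did and 27 turned sign. Of those for counts of called genes, 290 stayed within 1.5 times and 6 did not. Many alternatives of both kinds left out 1 library outside the groups compared. There the difference itself could not change, so these tallies do not measure how robust the results are. The count called between KO and WT at day 2 was 2 under quantile normalization. In KO between day 0 and day 2 it was 1 with KO-1 alone, 4 with KO-2 alone and 4 without a fold threshold, with no share of all genes given for these fits. Between the clones, 3 gene and day pairs were called by limma-voom and 4 without a fold threshold, with the shares of all genes given above. The ranges that follow have no share of all genes beside them and only describe how the counts varied. Leaving out each library in turn, where a lone WT library is assumed to vary like the other groups, gave 2 to 2 genes between KO and WT at day 0, 3 to 4 at day 2 and 6 to 8 at day 4, 4 to 5 and 6 to 7 in WT from day 0 to day 2 and day 4, 2 to 3 and 4 to 5 in KO, 3 to 3 and 6 to 7 for the change of the difference at day 2 and day 4, and 0 to 0 between the clones. Replicate numbers were not shown to pair the libraries: with 2 libraries a group, the r of replicate deviations was −0.23 to −0.0017 over the 3 pairs of groups within day 0, 0.37 to 0.48 within day 2 and −0.50 to 0.35 within day 4, so that those of day 2 deviated together, a hint from the data alone. A replicate block, and one with a term for each day, added after the data were seen, moved none of these counts by over 1.5 times and changed no call of the 8 genes.

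Values that turned sign were these, as log2 differences. With KO-2 alone they were Dppa2 in KO from day 0 to day 4 (0.0105) and from day 2 to day 4 (0.0842), Dppa4 between KO and WT at day 0 (0.0207) and in KO from day 0 to day 4 (0.0098), Dppa5a between KO and WT at day 2 (−0.234) and its change from day 0 (−0.1206), and Cd9 in KO from day 2 to day 4 (0.1092). With KO-1 alone they were the change of the difference for Dppa3 (0.0649 at day 2 and 0.0081 at day 4), Dppa5a in KO from day 0 to day 2 (0.0901) and Alpl at day 0 (−0.0706). By limma-voom it was the change for Dppa3 (0.782 and 3.8909), and by quantile normalization Alpl at day 0 (−0.0138). Leaving out 1 library gave a range that crossed 0 for Dppa4 between KO and WT at day 0 (−0.0497 to 0.036), Dppa5a at day 2 (−0.1603 to 0.2116) and Alpl at day 0 (−0.0216 to 0.0544), and between the clones for Dppa4 at day 0 (−0.0457 to 0.2113) and day 2 (−0.0905 to 0.0401), Cd9 at day 0 (−0.0081 to 0.5176) and Kit at day 2 (−0.0648 to 0.0112). The cause of these was not tested. For Dppa3 in WT at day 4 the depth allows 0 and 10 counts, so its ratio to KO is loosely known.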
